A study of Mus musculus with 14 samples.

Results

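The comparison is between a mouse lens epithelial line labelled as overexpressing KCREB and the line labelled Vector, in 4 of the 14 libraries of the series. Genes were compared as log2(TPM + 1), where TPM is a length-corrected level that has the same sum in every library, and a difference is KCREB minus Vector on that scale. Of 40853 gene identifiers, 10422 averaged 5 TPM or more in the 4 libraries. Of these, 7408 differed in the same direction in control and in TGFβ-treated cells and are the members described here, while 3014 did not. The members comprised 3441 genes higher in KCREB (33% of the 10422) and 3967 lower (38.1%). Which side held more genes depended on the scaling, as the last section shows.

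All 14 libraries came from αTN4-1 cells, a lens epithelial line that was immortalised with the SV40 large T antigen under the αA-crystallin promoter. Each of the 7 stable lines gave 1 control library and 1 library from cells given TGFβ at 20 ng per mL for 24 h in medium without serum. The 4 libraries used here are Vector control, Vector TGFβ, KCREB control and KCREB TGFβ. The genotype label of the Vector line is WT, and Vector is among the lines described as grown under neomycin. The other 5 lines are labelled S133A-KCREB, WT-CREB, S133A-CREB, S133A/R314A-CREB and R314A-CREB. Lines with a K in the label are missing from the description of growth conditions. The serum state of control cells is also not stated, so serum withdrawal and TGFβ cannot be told apart. There was 1 culture per line and treatment, so the 2 treatments are the only repeat of the line difference, and the construct cannot be told apart from the founder cells of each line.

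CREB is a leucine-zipper transcription factor that binds the cAMP response element (CRE) as a dimer. When cAMP rises, protein kinase A phosphorylates CREB at a serine in its kinase-inducible domain, which recruits the coactivators CBP and p300, while the CRTC proteins bind the zipper independently of that phosphate. KCREB is a CREB mutant with an altered DNA-binding domain: it pairs with CREB, and the pair no longer binds DNA, so it is used as a dominant negative. In the lens, the epithelial sheet expresses regulators such as Pax6, and TGFβ drives these cells toward a mesenchymal, matrix-producing state. All of this is background, and the sequence of the construct was not used here.

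The CRE in its full form reads TGACGTCA, and its 5-base part TGACG lies inside it. The promoters below are those of Pax6, Ltbp1, Fos and Bdnf, which were higher in KCREB, and of Ogdh, which was lower. They are shown because they bear these letters and their genes are described below, and Ltbp1 and Ogdh were chosen after their values were seen. Each line gives the 250 bases before a RefSeq start site on GRCm38.p6, 5′ to 3′, with the full CRE in capitals, or the 5-base part on either strand where the full form is missing.
Pax6 chr2:105668646-105668895 (+): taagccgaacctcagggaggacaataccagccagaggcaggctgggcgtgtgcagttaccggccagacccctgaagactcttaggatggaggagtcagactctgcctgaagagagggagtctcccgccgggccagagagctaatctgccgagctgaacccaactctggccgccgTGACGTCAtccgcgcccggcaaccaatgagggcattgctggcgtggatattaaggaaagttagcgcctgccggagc
Ltbp1 chr17:75005279-75005528 (+): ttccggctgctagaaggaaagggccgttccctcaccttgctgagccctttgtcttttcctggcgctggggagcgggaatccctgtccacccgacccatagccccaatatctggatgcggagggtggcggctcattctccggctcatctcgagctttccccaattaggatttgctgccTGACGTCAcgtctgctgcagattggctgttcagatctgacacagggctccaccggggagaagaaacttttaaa
Fos chr12:85473640-85473889 (+): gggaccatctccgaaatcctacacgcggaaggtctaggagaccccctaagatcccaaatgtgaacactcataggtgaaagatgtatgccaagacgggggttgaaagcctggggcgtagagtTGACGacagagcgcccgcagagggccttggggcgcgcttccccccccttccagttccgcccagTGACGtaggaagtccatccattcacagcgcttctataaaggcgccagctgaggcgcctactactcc
Bdnf chr2:109692186-109692435 (+): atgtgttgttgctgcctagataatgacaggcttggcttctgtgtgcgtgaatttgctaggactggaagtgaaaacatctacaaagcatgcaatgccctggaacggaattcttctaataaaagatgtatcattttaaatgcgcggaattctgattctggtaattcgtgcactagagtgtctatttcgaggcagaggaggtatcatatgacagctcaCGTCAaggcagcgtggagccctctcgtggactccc
Ogdh chr11:6291347-6291596 (+): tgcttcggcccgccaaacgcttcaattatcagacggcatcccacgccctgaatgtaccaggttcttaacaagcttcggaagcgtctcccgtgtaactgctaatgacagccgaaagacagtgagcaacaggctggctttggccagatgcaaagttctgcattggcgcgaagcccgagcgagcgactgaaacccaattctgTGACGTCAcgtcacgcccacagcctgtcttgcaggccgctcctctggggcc

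In these windows the full CRE began 76 bases before the start site of Pax6, 73 before that of Ltbp1 and 51 before that of Ogdh. The 5-base part stood at 129 and 66 bases before the Fos start site and, on the other strand, 35 before the Bdnf start site shown. Over promoters of 250 bases before to 50 bases after the start, 316 of 8317 genes with at least 5 TPM held a full CRE (3.80%). The share was 12 of 323 among genes called higher in KCREB (3.72%) and 12 of 405 among genes called lower (2.96%). The 5-base part was in 39.6% of the promoters of genes called higher, 33.6% of those called lower and 37.4% of all. Among the 2-fold genes it was in 9 of 20 promoters of higher genes (45%) and 7 of 64 of lower genes (10.9%), and the full form in 1 of each. These are matches of letters on either strand, described over the 82.2% of genes outside chromosome 18 and the mitochondrial genome that had a promoter in the table, a share that was 52.6% for the 2-fold higher and 64.6% for the 2-fold lower genes. No test was made of these shares.

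In simple measures the 4 libraries were close, but some split by line. In Vector 12730 and 12768 genes reached 1 TPM (control, then TGFβ), and in KCREB 12545 and 12563. Genes listed at 0 numbered 20840 and 20799 in Vector and 21648 and 21578 in KCREB. Mitochondrially encoded genes held 6.48% to 6.78% of TPM in Vector and 7.28% to 8.61% in KCREB. Read depth is not given as counts. The ratio of per-base coverage to FPKM, which grows with depth, was 6.01 to 7.67 in the 4 libraries. Lens epithelial identity was checked on 28 listed regulators and markers, of which 21 were tested. Their summed level was 3144 and 1933 TPM in Vector and 2987 and 1949 TPM in KCREB (control, then TGFβ). Foxe3, a defining regulator of lens epithelium, was listed at 0 in all 4 libraries. Of 30 crystallin and fiber genes, 20 were under 1 TPM in all 4 libraries, among them Crybb1, Mip and Bfsp1. In bulk RNA, fewer cells of a type and less RNA per cell cannot be told apart.

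Creb1, the gene of CREB itself, was at 20.8 and 23.1 TPM in Vector (control, then TGFβ, here and in all pairs of values below) and at 25.8 and 30.1 TPM in KCREB. The KCREB line was thus above Vector in both treatments, but only slightly. The difference was 0.33 ± 0.20 (SE from the model across 14 libraries), with an adjusted p of 0.359 by limma. The S133A-KCREB line had 34.0 and 38.3 TPM, and the remaining 4 lines lay between 4.43 and 11.6 TPM, below Vector. Whether the RNA of the construct is counted under Creb1 is not given in the sources used here, and the level of the construct is not known from this value.

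The line difference was then tested with limma over the 12927 genes that averaged 1 TPM or more over the 14 libraries. In this model, control and TGFβ are the repeats and the spread comes from how differently the 7 lines respond to treatment, so a small p says that these 2 lines differ steadily, not that the construct acts. At an adjusted p under 0.05, 455 genes were higher in KCREB (3.52%) and 661 were lower (5.11%). Of these 1116 genes, 516 differed by less than 1.5-fold. Counts of called list members, given below, are to be read beside the 3.52% and 5.11%. A stricter view with no test counts genes that differed by at least 2-fold in both treatments at 5 TPM or more: 42 were higher (0.403%) and 100 were lower (0.96%). Among them, 33 of the 42 and 91 of the 100 also passed the limma threshold. Just inside the 2-fold rule was Adamtsl4, with differences of 1.01 and 1.15, and just outside was Akr1b3, with -1.05 and -0.998. Predicted or unnamed genes made up 3 of the 42 and 24 of the 100.

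**Figure D1:**
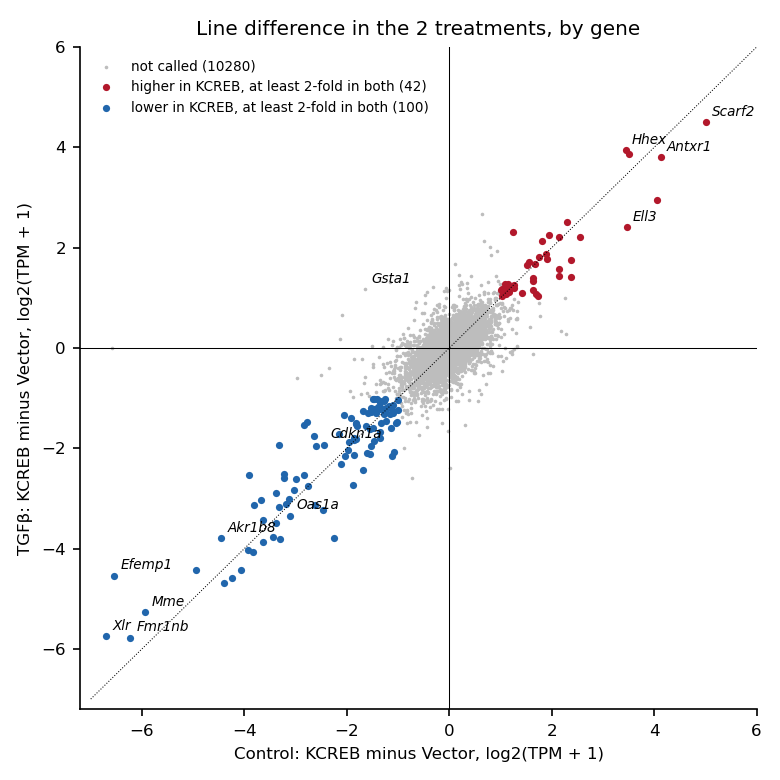
Each point is 1 of 10422 genes, with the KCREB minus Vector difference on log2(TPM + 1) in control cells (x axis) and in TGFβ-treated cells (y axis). The 42 genes at least 2-fold higher in KCREB in both treatments are red, the 100 lower are blue, and the dotted line marks equal differences. Scarf2, at the top right, and Xlr, at the bottom left, kept their direction in both treatments. Not all large differences did: that of the mitochondrial tRNA gene TrnS1, described below, was seen in control alone.

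The most extreme difference upward was in Scarf2, a scavenger-type receptor of the cell surface. It had 0.0179 and 0.0893 TPM in Vector against 31.9 and 23.8 TPM in KCREB, a difference of 4.76 ± 0.14. The other 5 lines had 22.6 to 65.3 TPM, so the Vector line was the one that stood apart. Antxr1, an anthrax toxin receptor and matrix-binding membrane protein, had 0.171 and 0.306 TPM in Vector and 19.5 and 17.3 TPM in KCREB. It was at 11.9 and 9.40 TPM in S133A-KCREB and at no more than 1.22 TPM in the remaining 4 lines, so both lines with K in their labels were high. Hhex, a homeobox transcription factor, was listed at 0 in both Vector libraries and in all 10 libraries of the other 5 lines, and had 9.86 and 14.4 TPM in KCREB.

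Snx15, a sorting nexin, had 0.445 and 0.150 TPM in Vector and 15.5 and 15.8 TPM in KCREB. Its level was not particular to KCREB: WT-CREB and S133A-CREB had 12.1 to 14.9 TPM, and the other 3 lines at most 1.15 TPM. Ell3, an elongation factor of RNA polymerase II, was 1.71 and 1.82 TPM in Vector and 28.8 and 13.9 TPM in KCREB, above the 2.37 TPM that was the highest of the other lines. Pde1a, a calmodulin-dependent phosphodiesterase that breaks down cyclic nucleotides, had 1.32 and 0.873 TPM in Vector and 12.5 and 7.68 TPM in KCREB, while S133A-CREB was higher still, at 30.6 and 10.8 TPM. Nr1h4, the bile acid receptor FXR, had 2.38 and 1.32 TPM in Vector, the lowest line in each treatment, and 16.5 and 5.17 TPM in KCREB. The remaining named protein genes of the 15 highest were Sgce, Phyh, Galnt15, Pcdhgb2 and Alkal1, with differences of 1.77 to 2.10.

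Among the 15 highest were also 3 mitochondrial tRNA genes, TrnI, TrnQ and TrnM, which lie side by side between ND1 and ND2 (positions 3706 to 3913 of the mitochondrial genome, GRCm39). TrnM had 45.3 and 35.8 TPM in Vector and 203 and 170 TPM in KCREB, the highest of the 7 lines in each treatment. Their neighbours ND1 and ND2, which encode subunits of complex I, were also higher in level but not called: ND1 had 10180 and 11623 TPM in Vector against 16221 and 16429 TPM in KCREB. Of 13 mitochondrially encoded protein genes tested, 0 were called higher and 1 lower (ND4L, with a difference of -0.56 ± 0.14). The tRNA genes are shorter than a usual sequencing fragment, so their TPM is uncertain. The mitochondrial share given above was also higher in KCREB. With TPM rescaled without the mitochondrially encoded genes, the 2-fold counts were 42 higher and 97 lower, the limma counts were 497 and 591, and 1039 of the 1116 calls remained (93.1%). On that scale the direction counts were 3780 genes higher and 3613 lower.

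**Figure D2:**
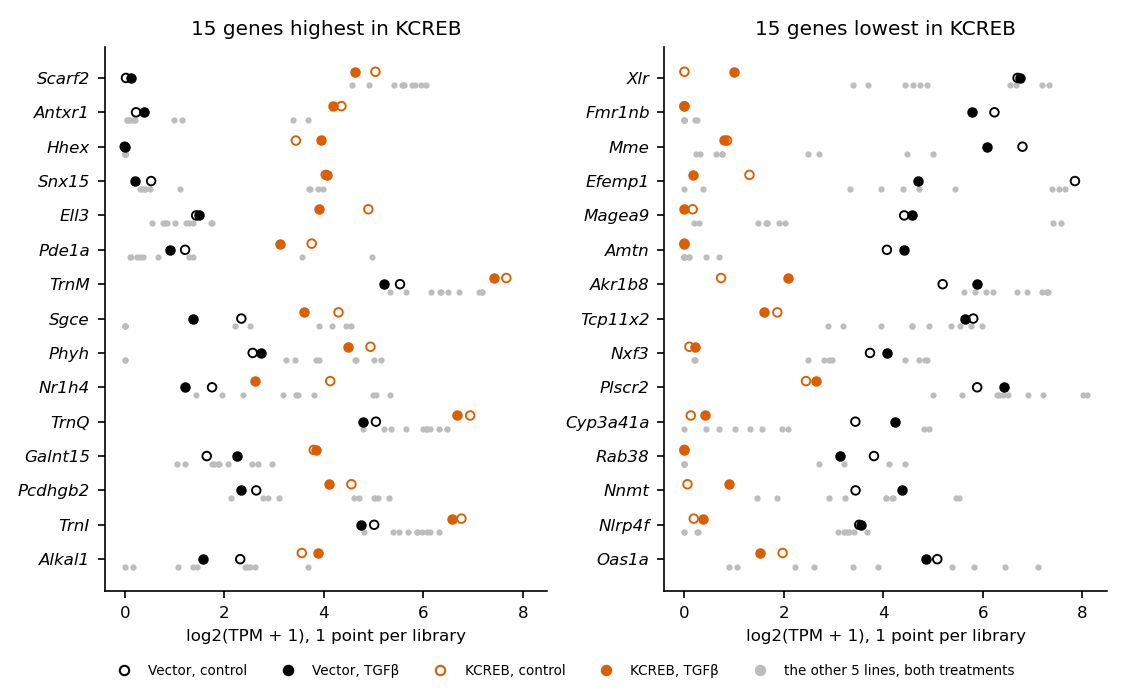
The 15 named genes highest and the 15 lowest in KCREB are shown as log2(TPM + 1), with 1 point per library. Open circles are control and filled circles TGFβ, black is Vector, orange is KCREB, and the 10 libraries of the other 5 lines are grey. For Scarf2, Fmr1nb and Amtn the black Vector points lie apart from the grey ones, and for Hhex, Ell3, Akr1b8 and Plscr2 the orange KCREB points do.

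Of the genes lower in KCREB, 15 were at least 10-fold lower in both treatments, against 4 that were at least 10-fold higher on the log2(TPM + 1) scale. Several lie on the X chromosome and are best known from the germline. Xlr, a lymphoid and germ-cell nuclear protein, had 103 and 106 TPM in Vector and 0 and 0.991 TPM in KCREB. The other lines spanned 9.53 to 161 TPM, with S133A-KCREB at the bottom of that range. Fmr1nb, a neighbour of the fragile X gene, had 74.2 and 53.8 TPM in Vector, was listed at 0 in both KCREB libraries, and did not exceed 0.196 TPM in the other 5 lines. Magea9, a cancer-testis antigen, had 20.4 and 22.9 TPM in Vector and 0.123 and 0 TPM in KCREB, but 168 and 190 TPM in S133A-CREB. Tcp11x2 and Nxf3, also on X, differed by -3.99 and -3.75. In all, 8 of the 100 genes lower by 2-fold and 1 of the 42 higher were on X, as were 328 of the 10422 genes compared.

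Outside X, the neutral endopeptidase gene Mme had 110 and 66.4 TPM in Vector and 0.812 and 0.748 TPM in KCREB. The Vector line was the highest of the 7 for Mme. Efemp1, a fibulin of the extracellular matrix, had 230 and 25.02 TPM in Vector and 1.48 and 0.120 TPM in KCREB. Its level was lower with TGFβ than without in each of these lines, and S133A-CREB, at 0.295 and 0 TPM, was as low as KCREB. Amtn, an enamel-matrix protein, had 15.8 and 20.4 TPM in Vector and at most 0.622 TPM in any other line.

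For Akr1b8 and Plscr2, the KCREB line lay far below every other line. Akr1b8, an aldo-keto reductase, had 35.5 and 58.0 TPM in Vector, 0.667 and 3.24 TPM in KCREB, and 48.2 to 159 TPM in the other lines, a difference from Vector of -4.13 ± 0.31. Plscr2, a phospholipid scramblase, had 58.1 and 84.5 TPM in Vector, 4.44 and 5.30 TPM in KCREB and at least 31.0 TPM elsewhere. The others of the 15 lowest were Cyp3a41a, Rab38, Nnmt, Nlrp4f and Oas1a, with differences of -3.56 to -3.23. Xlr, Magea9, Cyp3a41a, Nlrp4f, Oas1a and the Akr1b genes belong to families of close copies, so their reads may be split or misplaced between copies.

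Across all 142 genes that differed by 2-fold in both treatments, the other 5 lines show which line stood apart. Among the 42 higher genes, KCREB was the highest of the 7 lines in both treatments for 20, Vector was the lowest for 8, both held for 1, and neither for 13. Among the 100 lower genes, KCREB was the lowest for 49, Vector the highest for 9, and neither held for 42. The median of the other lines was nearer to Vector for 27 of the 42 and for 80 of the 100. Counted in the same way against the same Vector libraries, the other lines had between 72 and 364 genes higher and between 95 and 306 lower. R314A-CREB, with 72 and 95, came closest to the 42 and 100 of KCREB, and these comparisons share the Vector libraries.

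Many of the smaller differences ran along whole stretches of chromosome, which were picked out after the data were seen. Over 497 genes of chromosome 6 the median difference was -0.31 in control and -0.29 in TGFβ, and 82.5% of the genes were lower in both treatments. In the first 80 Mb of chromosome 11 (GRCm39) the medians over 476 genes were -0.31 and -0.28, with 83.4% lower in both, and past 80 Mb they were 0.03 and 0.06. The first 40 Mb of chromosome 16 showed the opposite shift, with medians of 0.26 and 0.32 over 219 genes and 80.8% higher in both. The rest of chromosome 16 had medians of -0.07 and 0.03. Chromosome 19 had medians of 0.22 and 0.22 over 381 genes, and chromosome 2 from 20 to 140 Mb had 0.23 and 0.27 over 544 genes. Over all 10422 genes the medians were -0.030 and -0.001.

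**Figure D3:**
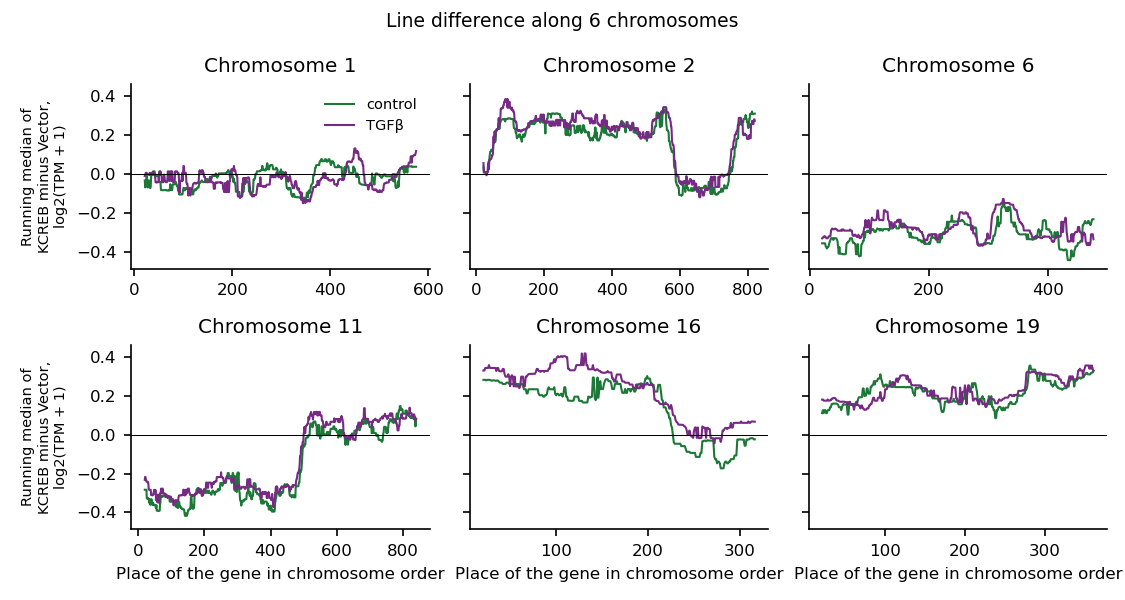
Running medians over 41 neighbouring genes of the KCREB minus Vector difference on log2(TPM + 1), in control (green) and TGFβ (purple), against the place of each gene in the order of its chromosome. Chromosome 1 stays near 0, chromosome 6 lies below 0 over its length, and chromosomes 2, 11 and 16 step between levels within a short run of genes, at the same places in both treatments.

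These 5 stretches hold 2117 genes, 20.3% of those compared, and 489 of the 898 limma calls among genes with at least 5 TPM (54.5%). Of these calls, 472 were on the side of the shift. Inside the stretches 23.1% of genes were called, against 4.92% of the 8305 genes elsewhere, where 167 were higher and 242 lower. The stretches were picked by the differences that the calls rest on, so this contrast and the side of calls follow from the choice. Milder shifts stayed in the rest. Chromosome 8 had medians of 0.09 and 0.13 (control, then TGFβ), and chromosome 15 of -0.12 and -0.11. Set against the median of the other 5 lines, chromosome 6 was at -0.13 in KCREB and 0.16 in Vector, and the first 80 Mb of chromosome 11 at -0.08 and 0.21. The first 40 Mb of chromosome 16 were at 0.03 in KCREB and -0.25 in Vector, so that shift was mostly in the Vector line. On chromosomes 19 and 2 it was mostly in KCREB, at 0.18 against -0.04 and 0.22 against -0.02. Of the 2-fold genes, 13 of the 42 higher and 26 of the 100 lower lie in these stretches. For genes named below, differences are given without subtracting the local shift.

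The gene group with the most calls in 1 direction was that of p53 targets, which act in cell-cycle arrest and apoptosis. Of 30 tested, 0 were called higher and 8 lower, where 3.52% and 5.11% of all genes tested were, and the median difference was -0.28, against -0.02 over all genes tested. Of 28 with at least 5 TPM, 20 were lower in both treatments and 4 were higher in both, against 38.1% and 33% of all genes. Cdkn1a, the cell-cycle inhibitor p21, had 36.8 and 45.8 TPM in Vector and 5.91 and 11.3 TPM in KCREB, a difference of -2.19 ± 0.42 (adjusted p = 0.0142 by limma). The other 5 lines had 16.5 to 171 TPM, so KCREB was the lowest line for Cdkn1a. Eda2r, a death-domain receptor on X, had 17.4 and 22.9 TPM in Vector and 0.842 and 5.23 TPM in KCREB. Ccng1, cyclin G1, had 246 and 208 TPM in Vector and 62.3 and 56.2 TPM in KCREB. It lies in the stretch of chromosome 11 whose local median was -0.32 and -0.28, well short of its difference of -1.92.

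Zmat3, an RNA-binding p53 target, had 32.8 and 35.7 TPM in Vector and 14.9 and 13.8 TPM in KCREB, below the 15.6 to 50.9 TPM of the other lines. The remaining calls in this list were Aen (-1.04), Trp53inp1 (-0.93), Gtse1 (-0.57) and Mdm2 (-0.56), the last being the ligase that degrades p53. The p53 gene itself, Trp53, was at 287 and 360 TPM in Vector and 238 and 398 TPM in KCREB, with no steady direction. Bax and Plk2 had differences of -0.29 and -0.14 and were not called, and Bbc3 stood at 0.40. The calls of Cdkn1a, Eda2r and Zmat3 were lost with no filter on low values, at adjusted p of 0.0571, 0.0845 and 0.0507.

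**Figure D4:**
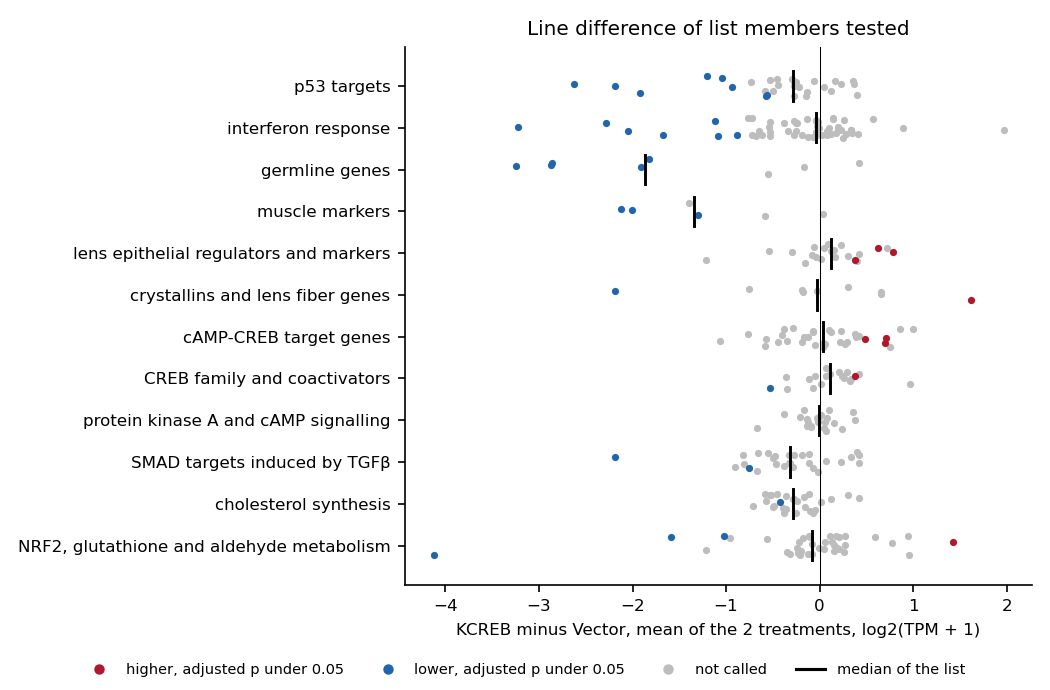
Each point is 1 tested member of a gene list, placed at its mean KCREB minus Vector difference on log2(TPM + 1), with members called higher by limma in red, called lower in blue and the others in grey. Black bars are list medians. Points are spread vertically at random within a list for legibility. The p53, interferon, germline, muscle, SMAD target and cholesterol lists have calls on the lower side alone, and the lens epithelial and cAMP-CREB target lists on the higher side alone.

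Interferon-response genes, which defend against viruses, were split. Of 57 tested, 0 were called higher and 7 lower, against 3.52% and 5.11% of all genes tested. The median difference was -0.04, near that of all genes. The genes called lower were the oligoadenylate synthetases Oas1a (-3.23), Oas2 (-2.05) and Oas3 (-1.68), the GTPases Gbp2 (-2.28) and Ifi47 (-1.11), the proteasome subunit Psmb8 (-1.08) and the transcription factor Irf1 (-0.88). Oas3 and Psmb8 averaged 1.52 and 1.08 TPM in the 4 libraries, near the floor and below the 5 TPM asked of members. Gbp2 had 94.9 and 36.5 TPM in Vector and 14.8 and 8.64 TPM in KCREB. Classical members did not follow: Isg15 had 323 and 226 TPM in Vector against 532 and 190 TPM in KCREB. Oasl1 went the other way by at least 2-fold in both treatments, from 1.47 and 1.62 TPM to 7.65 and 10.4 TPM, and was not called by limma. The list median was 0.07 in control and -0.28 in TGFβ. Irf1 and Ifi47 lie in the stretch of chromosome 11.

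Of 21 genes of MHC class I antigen processing, 0 were called higher and 3 lower, against 3.52% and 5.11% of all genes tested. Erap1, the peptidase that trims antigenic peptides, had 45.3 and 38.9 TPM in Vector and 23.4 and 22.97 TPM in KCREB, a difference of -0.83 ± 0.13. Among 25 NF-kB and inflammation genes 1 was called in each direction, with Tnfaip2 the higher one (0.98 ± 0.23).

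Germline genes were mostly silent, with 38 of 47 under 1 TPM in all 4 libraries and 8 tested. Of the 8, 5 were called lower and 0 higher, against 5.11% and 3.52% of all genes tested, and the list median was -1.87. Dppa4, a pluripotency-associated nuclear factor, had 12.5 and 17.3 TPM in Vector and 1.20 and 1.08 TPM in KCREB. Cox7b2, a testis-expressed paralog of a respiratory-chain subunit, had 31.9 and 27.0 TPM in Vector and 2.54 and 3.92 TPM in KCREB. Rhox5, an X-linked reproductive homeobox gene, had 13.5 and 16.7 TPM in Vector, 3.98 and 3.11 TPM in KCREB and 16.6 to 678 TPM in the other lines. Nlrp4f and Nlrp4e were the remaining calls. Most of these genes varied widely among the 7 lines, as with Cox7b2, which ranged from 1.17 to 61.1 TPM in the other 5.

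Markers of other cell types were mostly low. Of 20 muscle markers, 13 were under 1 TPM in all 4 libraries, with Myod1, Myog and Ckm at 0. Of the 6 tested, 3 were called lower, against 5.11% of all genes tested. Des, the muscle intermediate filament desmin, had 23.9 and 19.8 TPM in Vector and 5.30 and 4.06 TPM in KCREB. The summed muscle list was 66.3 and 184 TPM in Vector and 16.6 and 90.5 TPM in KCREB. Most of the sum with TGFβ came from cardiac troponin T, Tnnt2, which had 29.8 and 147 TPM in Vector and 7.05 and 81.2 TPM in KCREB and was not called. Of 17 macrophage markers, 12 were under 1 TPM, with Adgre1, C1qa and Cd14 at 0, and Cd48 was called lower, at a mean of only 2.31 TPM. Lyz2, a lysozyme of myeloid cells and the exception by level, had 86.8 and 34.0 TPM in Vector and 62.4 and 14.8 TPM in KCREB and was not called. Endothelial, neuronal and retinal, pigment, and surface ectoderm markers had 0 calls among 2, 2, 2 and 4 tested. In the last of these lists Aldh3a1, an aldehyde dehydrogenase abundant in cornea and lens epithelium, had 702 and 358 TPM in Vector and 275 and 168 TPM in KCREB. Slurp1, a secreted epithelial protein, had 28.8 and 0.491 TPM in Vector and 131 and 3.02 TPM in KCREB.

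Of the lens epithelial list, 3 of 21 tested genes were called higher and 0 lower, with a median of 0.12. Among all genes tested the shares called were 3.52% and 5.11%. Pax6, the master regulator of eye development, had 166 and 123 TPM in Vector and 328 and 187 TPM in KCREB, a difference of 0.79 ± 0.15 (adjusted p = 0.0144 by limma). The other 5 lines had 54.4 to 128 TPM, so both KCREB libraries were above every library of those lines. Meis2, a homeobox partner upstream of Pax6, had 108 and 68.4 TPM in Vector and 164 and 109 TPM in KCREB. Both genes lie in the stretch of chromosome 2, where the local medians were 0.21 and 0.24. Six3, a homeobox regulator on chromosome 17, had 66.3 and 58.8 TPM in Vector and 87.0 and 76.4 TPM in KCREB. Sox2 (0.16), Prox1 (0.42) and Tfap2a (0.72) were not called. The genes named here all had differences above 0, but the list was mixed. Of its 20 members with at least 5 TPM, 11 were higher in both treatments and 5 lower. Of those lower, 1 was at least 2-fold lower in both, and 0 were 2-fold higher.

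Among crystallins, Cryaa, the αA-crystallin chaperone whose promoter was used to immortalise these cells, had 4.08 and 6.17 TPM in Vector and 23.2 and 13.2 TPM in KCREB. Its difference was 1.62 ± 0.37. Cryab, the far more abundant αB-crystallin, had 1674 and 505 TPM in Vector and 1498 and 440 TPM in KCREB and was not called. Hspb1, another small heat shock protein, was called lower, with 15.2 and 15.7 TPM in Vector and 1.28 and 4.74 TPM in KCREB. The calls of Meis2, Cryaa and Hspb1 were lost with no filter on low values, at adjusted p of 0.0858, 0.0936 and 0.0634, and that of Six3 with the 4 libraries alone, at 0.0610.

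Of 19 CREB family and coactivator genes, 1 was called higher and 1 lower, where 3.52% and 5.11% of all genes tested were. Crtc1, a cAMP-regulated coactivator, had 15.8 and 16.5 TPM in Vector and 20.1 and 22.7 TPM in KCREB (0.38 ± 0.10), and the call was lost with the 4 libraries alone, at an adjusted p of 0.102. Creb3, a membrane-bound relative that acts in the secretory pathway, had 259 and 214 TPM in Vector and 190.0 and 139 TPM in KCREB (-0.53 ± 0.08). The coactivators Crebbp and Ep300 had differences of 0.26 and -0.07, and the closest relatives of CREB, Atf1 and Crem, of 0.07 and 0.42, with 0 calls. Among 22 genes of protein kinase A and cAMP signalling 0 were called, and the median was -0.01.

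Genes known as cAMP and CREB targets gave 3 calls higher and 0 lower among 33 tested, with a median of 0.04. Of all genes tested, 3.52% were called higher and 5.11% lower. Fos, the immediate early AP-1 subunit, had 6.40 and 3.15 TPM in Vector and 9.87 and 6.59 TPM in KCREB, and no library of the other lines exceeded 6.44 TPM. Bdnf, a neurotrophin whose promoter with a CRE-like element is printed above, had 12.5 and 10.1 TPM in Vector and 22.7 and 15.8 TPM in KCREB. Bdnf lies in the stretch of chromosome 2, where 19.5% of genes with at least 5 TPM were called higher. Other much-used reporters of CREB activity were spread on either side of 0 without calls: Nr4a1 at -0.45, Nr4a2 at -0.57, Sik1 at -0.35, Per1 at -0.17, Dusp1 at 0.23, Ptgs2 at 0.86 and Atf3 at 1.00. The largest difference of the list by size was that of Sgk1, at -1.06, and Inhba was at -0.77, also without calls. Of 22 tested targets with a promoter in the table, 3 held a full CRE (Dusp1, Areg and Scg2), and none of these 3 was called. The call of Fos was lost with no filter on low values, at an adjusted p of 0.0989 by limma.

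Both Ltbp1 and Ogdh have a full CRE in the promoter. Ltbp1, which binds latent TGFβ in the matrix, had 31.8 and 32.5 TPM in Vector and 70.5 and 54.8 TPM in KCREB, a difference of 0.93 ± 0.13. The other lines had 17.8 to 45.9 TPM, so KCREB was the highest line. Ogdh, the oxoglutarate dehydrogenase of the citric acid cycle, had 113 and 101 TPM in Vector and 62.8 and 72.0 TPM in KCREB, and it lies in the shifted stretch of chromosome 11.

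Of 28 SMAD targets that TGFβ induces, 0 were called higher and 2 lower, Cdkn1a and Bhlhe40, and the median was -0.32. Among the 27 with at least 5 TPM, 16 were lower in both treatments and 5 higher, where 38.1% and 33% of all genes were. Bhlhe40, a basic helix-loop-helix repressor on chromosome 6, had 112 and 285 TPM in Vector and 67.0 and 164 TPM in KCREB. Ccn2, a matricellular growth factor, had 121 and 998 TPM in Vector and 77.1 and 782 TPM in KCREB and was not called. The list median was -0.32 in control and -0.25 in TGFβ, below 0 in both treatments.

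Of 31 TGFβ and BMP ligands, receptors and SMADs, 1 was called higher and 2 lower. Chrdl1, a secreted BMP antagonist, had 250.4 and 76.1 TPM in Vector and 439.7 and 128 TPM in KCREB, where the other lines had 27.1 to 214 TPM. Tgfb3, a TGFβ ligand, had 40.4 and 67.9 TPM in Vector and 28.8 and 40.3 TPM in KCREB. In the mesenchyme and matrix list, 3 of 40 were called higher and 1 lower. Timp3, a metalloproteinase inhibitor, Pdgfra, a growth factor receptor of fibroblasts, and Cd44, a hyaluronan receptor, had differences of 0.72, 0.69 and 0.50, while Efemp1 is described above. Thbs1, the matrix protein thrombospondin 1, had 276 and 782 TPM in Vector and 39.2 and 280.3 TPM in KCREB, where the other lines had 270.7 to 1446 TPM. It was lower by more than 2-fold in both treatments (-2.13 ± 0.59) and was not called by limma, at an adjusted p of 0.0563. Of 9 transcription factors of the epithelial to mesenchymal transition, Zeb2 alone was called, at 31.8 and 33.0 TPM in Vector and 45.8 and 45.7 TPM in KCREB. Cd44 and Zeb2 lie in the stretch of chromosome 2. Each of these calls except Chrdl1 and Efemp1 was lost under at least 1 alternative, with adjusted p up to 0.113.

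Among 13 tested junction and keratin genes, 2 were called lower. Dsp, desmoplakin of desmosomes, had 9.02 and 10.2 TPM in Vector and 0.0467 and 0.0803 TPM in KCREB, and its mean of 4.83 TPM kept it just outside the 5 TPM rule. Cgn, the tight-junction protein cingulin, had 17.98 and 19.2 TPM in Vector and 11.002 and 11.7 TPM in KCREB, below the 23.1 to 47.3 TPM of the other lines. Of 23 integrin and focal adhesion genes, 1 was called lower, the actin crosslinker Flna (-0.41 ± 0.10), and the median was -0.22. Of 21 lens capsule and basement membrane genes 1 was called in each direction, with Col4a5, a collagen IV chain, higher at 0.53 ± 0.14.

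Among detoxification genes, single members stood out. Of 39 NRF2, glutathione and aldehyde metabolism genes, 1 was called higher and 3 lower, with a median of -0.08. Besides Akr1b8, the lower ones were Gstm2, a glutathione transferase with 278 and 131 TPM in Vector and 89.8 and 43.7 TPM in KCREB, and Akr1b3, the aldose reductase of the polyol pathway. Akr1b3 had 152 and 258 TPM in Vector and 73.1 and 129 TPM in KCREB. Akr1b3 and Akr1b8 are neighbours on chromosome 6, where the local medians were -0.36 and -0.31. Hmox1, heme oxygenase 1, was higher, with 109 and 111 TPM in Vector and 209 and 426 TPM in KCREB (1.43 ± 0.36). Nqo1 and Gclc, other NRF2 targets, had differences of -0.31 and 0.11 and were not called.

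Cholesterol synthesis genes differed by treatment in level. Over 27 tested genes the median was 0.04 in control and -0.64 in TGFβ. Sqle, squalene epoxidase, had 383 and 313 TPM in Vector and 321 and 167 TPM in KCREB. By limma 1 gene of this list was called lower and 0 were called higher. The interaction of line and treatment has 1 library per cell of the design and was not tested.

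The other metabolic and growth lists gave few calls each. Of 39 nuclear-encoded genes of oxidative phosphorylation, Ndufa8 was called higher and Ndufa9 lower, both subunits of complex I. Ndufa8 had 66.7 and 52.4 TPM in Vector and 145 and 121 TPM in KCREB. Of 31 G2-M genes, 1 was called higher (Nusap1) and 4 lower, and of 34 DNA replication genes 1 higher (Mcm4) and 2 lower (Rrm1 and Mcm2), with differences of -0.33 to 0.39 among these. Of 29 ATF4 and integrated stress genes, Stc2 and Vldlr were higher and Mthfd2 and Asns lower, and each of these 4 differed by 0.52 to 1.14 in size. Glycolysis had 1 call lower of 28 (Tpi1), ribosome biogenesis 2 lower of 35, the unfolded protein response 1 higher of 27 (Sdf2l1), and Notch and YAP-TEAD targets 0 of 12 and 0 of 23. Except for Rrm1, all genes named in these lists lie in shifted stretches, and on the side of their stretch for all but Stc2.

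Signalling genes outside the TGFβ pathway gave some of the clearer single differences. Sfrp1, a secreted Wnt inhibitor, had 181 and 42.2 TPM in Vector and 563 and 108 TPM in KCREB, where the other lines had 9.60 to 61.4 TPM. It was the single call among 23 Wnt genes, at 1.49 ± 0.29. Tgfa, an EGF receptor ligand, had 16.6 and 12.2 TPM in Vector and 6.41 and 5.53 TPM in KCREB, below the lowest value of the other lines. Its receptor gene Egfr was also called lower, at -0.38 ± 0.10, where the local medians were -0.33 and -0.26. Among 11 imprinted genes, Sgce was called higher, at 4.08 and 1.58 TPM in Vector and 18.7 and 11.2 TPM in KCREB, was listed at 0 in S133A-KCREB and S133A/R314A-CREB, and lay between 3.64 and 22.4 TPM in the remaining 3 lines. Slc22a18 was called lower, at 24.9 and 10.9 TPM in Vector and 7.53 and 1.78 TPM in KCREB. Of 10 Hox genes 3 were called lower and 0 higher, against 5.11% and 3.52% of all genes tested, and all 3 lie in shifted stretches. Among them were Hoxa5 and Hoxd8, with differences of -0.54 and -0.51. Tgfa, Sgce and Hoxa5 lie on chromosome 6, Egfr in the first 80 Mb of chromosome 11 and Hoxd8 in the stretch of chromosome 2, so Sgce and Hoxd8 went against their stretch.

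In some genes the line difference was unlike in the 2 treatments, and examples are given as values with no test. The extreme by size was the mitochondrial tRNA gene TrnS1, which had 95.3 and 0 TPM in Vector and was listed at 0 in both KCREB libraries, followed by the transferase gene Gsta1 and the microRNA gene Mir692-3. Mmp9, gelatinase B, had 3.62 and 47.9 TPM in Vector and 3.67 and 8.29 TPM in KCREB, so the lines were level in control and apart with TGFβ. Cd40, a TNF receptor of immune activation, had 1.49 and 17.9 TPM in Vector and 0.491 and 2.15 TPM in KCREB. Apol9b had 16.7 and 67.3 TPM in Vector and 16.4 and 20.8 TPM in KCREB, and its near-copy Apol9a 17.2 and 17.4 TPM against 21.6 and 5.36 TPM. In the other direction, Folr1, a folate receptor, had 26.4 and 0.692 TPM in Vector and 2.51 and 0.116 TPM in KCREB, so that its line difference was seen mainly in control cells. The histone gene H2aw had 16.8 and 2.20 TPM in Vector against 3.05 and 2.60 TPM in KCREB.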

How the data were processed

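RNA from αTN4-1 mouse lens epithelial cells was sequenced in 14 libraries, and 4 of them, 1 per line and treatment, make up this comparison. The submitters' processing notes name GRCm39, STAR 2.7.6a, StringTie 2.0.4 and edgeR, without roles. The authors deposited a TPM and an FPKM value per gene, and the deposited coverage gives the mean per-base signal of each gene, per the file headers. Since read counts are not part of these tables, no count test was run, and depth was read only from the ratio of coverage to FPKM. Strand handling is not given in the sources used here, so reads of a gene and its antisense partner cannot be told apart.

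Rows sharing a gene identifier were summed. The line difference was fitted with limma 3.58.1 (R 4.3.3) on log2(TPM + 1), with treatment and line as terms, all 14 libraries, an intensity trend, and Benjamini-Hochberg adjustment over 12927 genes. The p-values are two-sided. Fold changes on this scale understate the change of low genes. On simulated data the fit called 78% of genes changed by 2-fold, 32% of those changed by 1.5-fold and 0.0864% of unchanged genes. The simulation set KCREB and Vector equal but for a small set of changed genes, with independent normal noise per gene. It held no shifts shared by neighbouring genes, so these shares are not the error rates of the real comparison. Named genes are Creb1, the 15 highest and 15 lowest called genes averaging 5 TPM or more (predicted genes left out), up to 4 called members of each list, and the 5 in each direction whose difference changed most with treatment. Some genes that these rules name are not reported here. Other genes in the text were chosen after their values were seen. The members, the 40 gene lists and the rules were chosen with earlier results of these data known. Promoters are from RefSeq on GRCm38.p6, and coordinates otherwise from the deposited tables. Alternatives were other pseudocounts, filters, scalings, units, folds and subsets of lines.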

Additional observations from a re-analysis of the deposited data

Results flagged for a closer look

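For 2 genes the lines differed by at least 2-fold in opposite directions in the 2 treatments, with 1 library per line and treatment, and the difference was not tested. Gsta1, a glutathione transferase with near-identical relatives, had 21.6 TPM in Vector and 6.18 TPM in KCREB in control cells (-1.6521), and 3.23 against 8.54 TPM with TGFβ (1.1753). Gm26457, a predicted gene, had 6.62 TPM in Vector and 2.43 TPM in KCREB in control cells (-1.1504), and 4.08 against 11.7 TPM with TGFβ (1.3196).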

How the results depend on the processing

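The 2-fold counts, 42 genes higher and 100 lower, were 23 and 61 with a pseudocount of 5, 69 and 224 with no filter on low values, 161 and 241 at 1.5-fold, 9 and 35 at 4-fold, 87 and 170 in control libraries alone, and 83 and 160 in TGFβ libraries alone. With a mean of at least 10 TPM the lower count was 61, and with FPKM the higher count was 27. Less the median of the 20 Mb bin that holds each gene, a setting chosen after seeing the data, the 2-fold counts were 38 and 88. The direction counts, 3441 and 3967, were 5732 and 7246 with no filter, and 3398 and 4026 with FPKM. Their order was reversed by median-of-ratios scaling (3819 higher, 3595 lower) and by quantile normalization (3811 and 3609). Less the bin median they were 3464 and 3463. The excess of lower genes in the direction counts therefore depended on the scaling. For the 2-fold and limma counts the order did not change under these 2 scalings. With median-of-ratios scaling the 2-fold counts were 44 higher and 96 lower, and the limma counts 536 and 631. With quantile normalization they were 45 and 92, and 544 and 599. The limma counts, 455 and 661, were 259 and 423 with the 4 libraries alone, where 534 of the 1116 calls remained. Leaving out any other line kept 79.5% to 90.1% of the calls. Over 104 named genes and 15 settings, 1532 values were compared: 1352 kept their side of the threshold, 179 lost the call, 1 gained it and 0 changed direction. With no filter, 33 of 104 lost the call. No paired analysis was possible because each line and treatment has 1 library and the groups share a single replicate number, beyond treatment, which is already a term of the fit and sets the lines against each other within it. No library could be left out of a group of 1. Depth in counts is unknown, so low values carry no counting error here.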
